A study of Homo sapiens with 4 samples.

Results

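The genes described are 71 histone and DNA modifying enzymes, from families that write and erase methyl and acetyl groups on histones and methyl groups on DNA. Membership and classes go by name, and some members, such as SIRT2, KMT2E and KDM8, have other or unclear activities. They are the protein-coding rows of the deposited expression table whose symbols are one of the family names KMT, KDM, KAT, HDAC, SETD, SIRT, PRMT, DNMT, TET or EZH followed by a number and at most one letter from A to E. They make up 71 of 33478 rows of the table used here, 18833 of which are protein-coding. Enzymes with other names, such as DOT1L or SETDB1, are not among them and appear only as partners. HDAC10, PRMT2, SETD4 and KDM5D fit these names but had no such row, so their classes are incomplete here.

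Histone lysine methyltransferases and acetyltransferases transfer methyl groups from S-adenosylmethionine and acetyl groups from acetyl-CoA. Demethylases, zinc-dependent deacetylases and the NAD-dependent sirtuins remove them. DNA methyltransferases methylate cytosine and the TET dioxygenases oxidise that mark. In hepatocellular carcinoma these families are studied for their part in silencing hepatocyte genes and in proliferation.

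RNA was sequenced from the human liver cancer line MHCC-97H, derived from hepatocellular carcinoma and selected for high metastatic capacity. Libraries titled SH-UCK2-B (genotype label UCK2 knockdown) carried a short hairpin RNA (shRNA) against UCK2, a kinase of uridine and cytidine salvage, and those titled SH-NC (genotype label control) carried a control hairpin. There were 2 libraries of each group, and the labels give no separate cultures or clones, no time after transduction and no meaning for the letter B. If B names a single hairpin, effects of that hairpin on other transcripts and effects of UCK2 loss cannot be told apart. With no separate cultures named, each p-value reflects library-to-library spread, which may be technical. Values are TPM (transcripts scaled to a fixed library total and to transcript length), divided here by a scaling factor per library that brings the typical gene to the same level in each, and called scaled TPM. This was done because 32.3% and 35.7% of the TPM total lay outside the rows used here in UCK2 shRNA replicates 1 and 2, against 15.0% and 14.9% in control replicates 1 and 2. Without scaling, the median log2 difference of all genes was -0.22, and with it the median was -0.01. Differences are UCK2 shRNA minus control on the log2(scaled TPM + 1) scale, which understates changes at low levels, and levels can be compared between genes because TPM are per transcript length. TPM keep no read depth, so no counting error is given.

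The target itself was not separated by the labels. UCK2 (chromosome 1, 165827531 to 165911618, plus strand of hg38) measured 131 and 73.1 scaled TPM in UCK2 shRNA replicates 1 and 2, against 114 and 93.3 in control replicates 1 and 2. The control values lay between those of the UCK2 shRNA libraries, and UCK2 differed by -0.08 ± 0.28 on the log2 scale (SE), with a 95% interval from -0.72 to 0.57 (adjusted p = 0.990, limma). Its difference was -0.49 without UCK2 shRNA replicate 1 and 0.34 without UCK2 shRNA replicate 2. Each direction below therefore rests on the library titles. The highest correlation between libraries crossed the groups, at 0.982 for UCK2 shRNA replicate 1 and control replicate 1 (Pearson, log2 of scaled TPM + 1). It was 0.978 within the UCK2 shRNA group and 0.974 within the controls. The lowest, 0.960, was between UCK2 shRNA replicate 2 and control replicate 2. The descriptions of control replicate 2 and UCK2 shRNA replicate 2 name a different cell line number and UCK3. Of 11 hepatocyte and hepatoma markers, 9 averaged at least 1 scaled TPM, with sums of 143 and 117 in the UCK2 shRNA libraries and 144 and 163 in the controls, while GPC3 and APOB averaged less. KRT8 and KRT18 were abundant and EPCAM was at or under 0.36 in every library. Markers of other cell types were not all absent. Of 6 blood and immune markers 2 averaged at least 1, CD68 (37.5 to 54.4 scaled TPM) and HBB (0.394 to 1.45). Of 6 fibroblast markers 1 did, LUM (5.83 to 23.2), and of 3 endothelial markers 1 did, PECAM1 (20.3 to 23.5). Because the label on RNA extraction mentions retinas, retina genes were checked as well, and 1 of 11 retina markers (OPN1SW) averaged at least 1, with summed levels of 2.47 to 4.25.

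Of the 71 enzymes, 67 averaged at least 1 TPM as deposited and were tested among 14038 genes. The other 4 were TET1, PRMT8, KDM4D and KDM4E, whose scaled TPM ran from 0 to 0.611, and KDM4E was listed at 0 in every library. No modifying enzyme passed the threshold. At an adjusted p under 0.05 with limma, 0 of 67 enzymes rose and 0 fell, where 0.0641% of all genes tested were called higher and 0% lower. At an unadjusted p under 0.05 the count was also 0 of 67, where 3.97% of all genes were higher and 1.42% lower. As deposited, 9 of 67 had an unadjusted p under 0.05, all on the lower side, where 1.38% of all genes were higher and 1962 of 14038 genes lower, and none passed the adjusted threshold. With scaled values the smallest adjusted p of the 67 was 0.926. The median log2 difference of the 67 was 0.08, against -0.01 for all genes tested and -0.03 for the 11624 protein-coding ones, and 43 of 67 were above 0 and 24 below, against 49.2% and 50.8% of all genes. As deposited the median of the 67 was -0.13 and 13 of 67 were above 0, so the sign of that median depends on the scaling.

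Differences between single libraries of the same group were set beside the difference between group means. Across the 67 enzymes the median absolute log2 difference was 0.18 between group means, 0.19 between the UCK2 shRNA libraries and 0.23 between the controls. Means of 2 libraries spread less than single libraries, so these values are not like measures and are given as a description. The groups did not overlap for 14 enzymes that were higher in the UCK2 shRNA libraries (20.9%, where the share of all genes tested was 16.0%) and for 10 that were lower (14.9%, against 15.5% of all genes). As deposited these counts were 1 higher and 30 lower, where all genes gave 5.46% higher and 44.4% lower. When each library was left out in turn, 32 of the 67 log2 differences kept their sign in all 4 cases, 19 of them above 0 and 13 below.

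**Figure D1:**
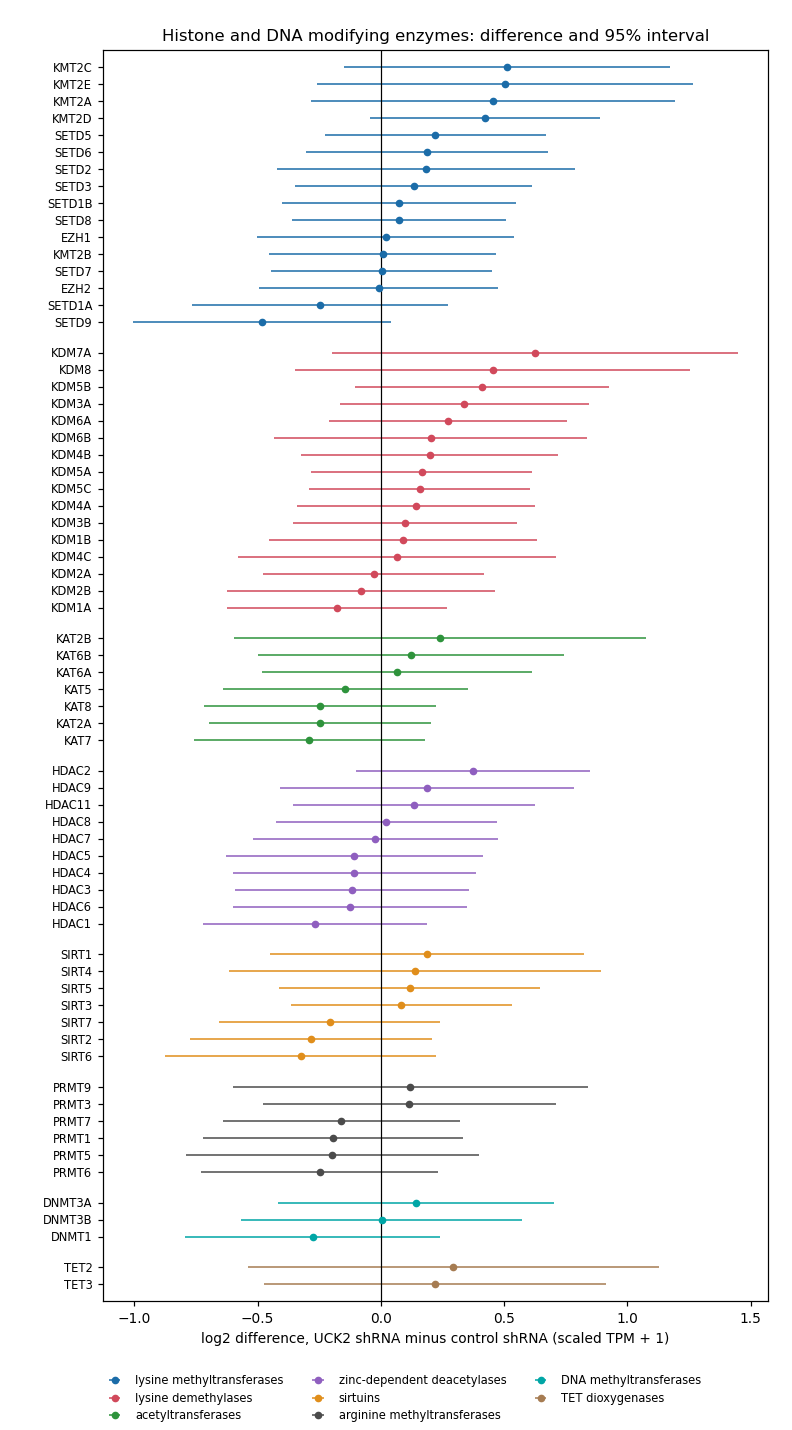
Log2 difference (UCK2 shRNA minus control shRNA, on log2 of scaled TPM + 1) of the 67 enzymes tested, in blocks by enzyme class, with points for the estimate and bars for the 95% interval from limma (n = 2 libraries a group). Every bar crosses 0, from SETD9 at -0.48 to KDM7A at 0.63.

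The most abundant enzyme was PRMT1, and 4 of the 71 averaged at least 100 scaled TPM. These were PRMT1 at 274, SIRT7 at 142, HDAC1 at 134 and SETD5 at 110 (means over 4 libraries). KDM5C at 76.2 and HDAC2 at 66.9 followed. The least abundant tested were TET2 at 1.48, SIRT4 at 1.53 and KDM7A at 1.90. The median level of the 67 was 18.0 scaled TPM, against 15.9 for all protein-coding genes tested.

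Lysine methyltransferases, which include the SET-domain KMT2 (MLL) family and the Polycomb enzymes EZH1 and EZH2, had a median log2 difference of 0.10 over 16 genes, with 13 above 0 and none past the threshold. The class median was -0.13 as deposited and -0.03 without UCK2 shRNA replicate 2. The highest values in the class belonged to the KMT2 genes, large enzymes that methylate histone H3 at promoters and enhancers. All 5 of them were above 0, or 4 of 5 as deposited, with medians of 0.45 scaled and 0.23 as deposited. Without UCK2 shRNA replicate 2, 3 of 5 were above 0, and without control replicate 2 the median was 0.12.

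KMT2D, a methyltransferase of enhancers, measured 35.9 and 43.7 scaled TPM in UCK2 shRNA replicates 1 and 2, against 31.1 and 27.6 in control replicates 1 and 2. Both UCK2 shRNA libraries lay above both controls, and the log2 difference of KMT2D was 0.42 ± 0.21 (SE, limma adjusted p = 0.945). KMT2C, its paralog, measured 8.75 and 9.73 scaled TPM in the UCK2 shRNA libraries, against 8.38 and 4.48 in the controls. The groups did not overlap for KMT2C, but control replicate 1 was close to UCK2 shRNA replicate 1, and the log2 difference of 0.51 ± 0.29 (adjusted p = 0.955) was 0.12 without control replicate 2. KMT2C has partial copies elsewhere in the genome, which makes its level uncertain.

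KMT2E, a family member without a clear methyltransferase activity, measured 26.1 and 32.4 scaled TPM in the UCK2 shRNA libraries, against 30.2 and 13.4 in the controls. Control replicate 2 was low and the other 3 libraries lay between 26.1 and 32.4, and the difference of 0.50 ± 0.34 in KMT2E (adjusted p = 0.955) was -0.05 without that library. KMT2A, the MLL1 gene rearranged in leukaemia, measured 11.5 and 24.7 scaled TPM in the UCK2 shRNA libraries, against 13.2 and 11.1 in the controls. Here UCK2 shRNA replicate 2 alone was high, and the difference of 0.45 ± 0.33 in KMT2A (adjusted p = 0.955) was -0.07 without it. KMT2B, given outside the rule for naming genes, did not share these values, at 17.2 and 19.4 scaled TPM in the UCK2 shRNA libraries against 18.2 and 18.2 in the controls. The difference of KMT2B was 0.0084, or -0.07 without UCK2 shRNA replicate 2. As deposited it was -0.22, with both UCK2 shRNA libraries below both controls.

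At the other end of the class stood SETD9, a little studied SET-domain gene (chromosome 5, 56909260 to 56917348, plus strand of hg38). It measured 5.98 and 5.26 scaled TPM in UCK2 shRNA replicates 1 and 2, against 8.48 and 7.97 in control replicates 1 and 2. Both UCK2 shRNA libraries lay below both controls, with a log2 difference of -0.48 ± 0.23 (SE; 95% interval reaching up to 0.04; limma adjusted p = 0.926), the smallest p among the 67. SETD9 kept this sign with each library left out, from -0.56 to -0.40, and measured -0.69 as deposited. The 250 bases before its start in RefSeq (GRCh38.p14, chr5:56909346-56909595, plus strand) are shown because SETD9 had the lowest difference of the 67, with capitals for the GC box GGGCGG on either strand, a motif bound by SP1-like factors.
SETD9: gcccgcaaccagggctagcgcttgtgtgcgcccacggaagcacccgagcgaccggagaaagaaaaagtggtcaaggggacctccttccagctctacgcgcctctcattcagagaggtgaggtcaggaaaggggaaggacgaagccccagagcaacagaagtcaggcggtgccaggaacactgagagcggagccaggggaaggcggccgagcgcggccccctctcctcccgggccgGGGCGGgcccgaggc
This window holds 1 GC box and 20 CG dinucleotides. It lies inside the deposited span of SETD9, which starts upstream of the RefSeq start.

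Of the 3 most abundant lysine methyltransferases, KMT2D is described above. SETD5, a SET-domain gene linked to intellectual disability, averaged 119 ± 3.88 scaled TPM in the UCK2 shRNA libraries and 102 ± 12.2 in the controls (SD, n = 2 each), a log2 difference of 0.22 that was -0.02 as deposited. Both UCK2 shRNA libraries lay above both controls for SETD5 at 115.8 and 121.3 in the UCK2 shRNA libraries against 110.6 and 93.3 in the controls, and as deposited the groups overlapped. SETD8, now named KMT5A and the enzyme that monomethylates histone H4, averaged 65.1 ± 1.31 and 62.0 ± 5.10 scaled TPM in the UCK2 shRNA and control libraries, with 0.07 scaled and -0.17 as deposited. The Polycomb enzymes, named outside the rule, were nearly level. EZH2 measured 25.7 and 26.9 scaled TPM in the UCK2 shRNA libraries against 30.3 and 23.1 in the controls, a difference of -0.01 with a 95% interval of -0.49 to 0.48. EZH1 measured 8.48 and 9.21 scaled TPM in the UCK2 shRNA libraries against 9.74 and 7.79 in the controls, a difference of 0.02 with an interval of -0.50 to 0.54. For both Polycomb genes the control values enclosed those of the UCK2 shRNA libraries.

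**Figure D2:**
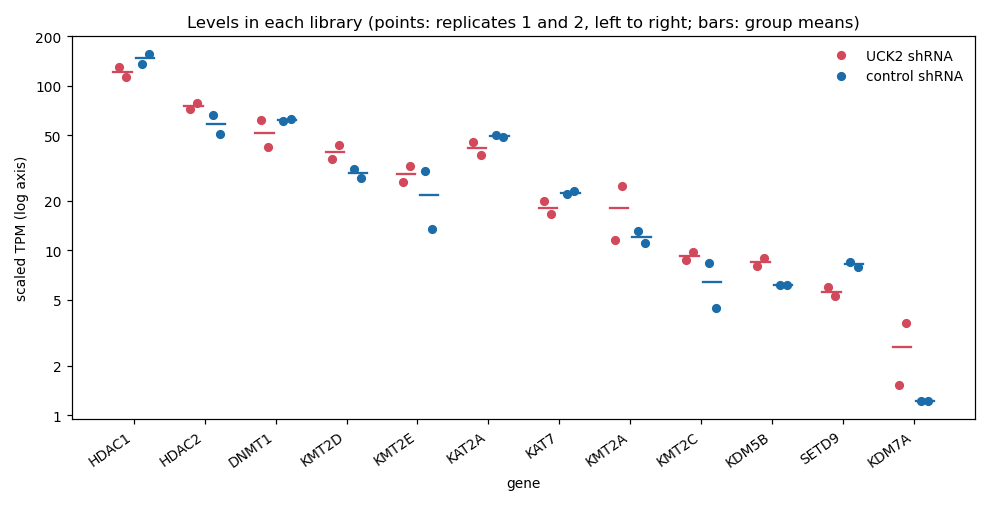
Scaled TPM on a log axis of 12 enzymes in each library, with points for replicates 1 and 2 from left to right and bars for group means, UCK2 shRNA in red and control shRNA in blue. KDM5B, KMT2D and HDAC2 lie above the controls in both UCK2 shRNA libraries, SETD9, HDAC1, KAT2A and KAT7 lie below, and KMT2E is set apart by control replicate 2 at 13.4.

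Of 16 lysine demethylases tested, 13 had a log2 difference above 0 and none passed the threshold, with a median of 0.16. The groups did not overlap for 9 that were higher, 56.2% of the class where all genes gave 16.0%, and for 1 that was lower, 6.25% where all genes gave 15.5%. As deposited these counts were reversed, with 1 higher and 7 lower, where all genes gave 5.46% and 44.4%. The 9 were KDM3A, KDM3B, KDM4A, KDM4B, KDM4C, KDM5A, KDM5B, KDM6A and KDM7A, listed after their values were seen. Of these, KDM3B, KDM4A, KDM4B, KDM4C and KDM5A were below 0 as deposited, from -0.13 to -0.01. For KDM3B and KDM4C both deposited UCK2 shRNA values lay below both controls. Some gaps were narrow, as for KDM4C at 2.19 scaled TPM in UCK2 shRNA replicate 1 against 2.17 in control replicate 2. As deposited 5 of 16 were above 0 and the median was -0.07, and with each library left out the scaled median ran from 0.06 (without control replicate 1) to 0.21 (without UCK2 shRNA replicate 1). Of the differences in the class, 12 kept their sign with every library left out, 11 of them above 0.

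KDM5B, which removes the trimethyl mark of active promoters, measured 8.10 and 8.98 scaled TPM in UCK2 shRNA replicates 1 and 2, against 6.15 and 6.19 in control replicates 1 and 2. The replicates of each group lay close together and the groups apart, with a log2 difference of 0.41 ± 0.23 (SE, limma adjusted p = 0.955). KDM5B was also the 1 of 67 enzymes whose groups did not overlap upward as deposited, where all genes gave 5.46%. The deposited values of KDM5B were 7.44 and 8.34 TPM in the UCK2 shRNA libraries against 7.30 and 6.21 in the controls. There the controls lay further apart and the gap between groups was narrow, with a difference of 0.20. KDM3A, a hypoxia-induced demethylase named outside the rule, measured 22.1 and 28.2 scaled TPM in the UCK2 shRNA libraries against 21.6 and 17.6 in the controls. The difference of KDM3A was 0.34, or 0.17 without UCK2 shRNA replicate 2. KDM6A (UTX), which removes the Polycomb mark and is also named outside the rule, measured 16.0 and 19.6 scaled TPM in the UCK2 shRNA libraries against 14.9 and 14.2 in the controls, a difference of 0.27.

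KDM7A, a PHD-finger demethylase (chromosome 7, 140084746 to 140177035, minus strand), had the largest difference of the 67, 0.63 ± 0.36 (SE; 95% interval -0.20 to 1.45; adjusted p = 0.955). It measured 1.53 and 3.64 scaled TPM in the UCK2 shRNA libraries, against 1.22 and 1.21 in the controls. UCK2 shRNA replicate 2 was the high one, and without it the difference was 0.19. KDM8, a JmjC-domain hydroxylase, measured 3.47 and 4.91 scaled TPM in the UCK2 shRNA libraries, against 1.73 and 4.16 in the controls. Control replicate 1 was low, and the difference of 0.45 in KDM8 was -0.0065 without it. The 250 bases before the RefSeq start of KDM7A (GRCh38.p14, chr7:140176984-140177233, minus strand) are shown as those of the gene with the largest difference, with GC boxes in capitals (CCGCCC on this strand).
KDM7A: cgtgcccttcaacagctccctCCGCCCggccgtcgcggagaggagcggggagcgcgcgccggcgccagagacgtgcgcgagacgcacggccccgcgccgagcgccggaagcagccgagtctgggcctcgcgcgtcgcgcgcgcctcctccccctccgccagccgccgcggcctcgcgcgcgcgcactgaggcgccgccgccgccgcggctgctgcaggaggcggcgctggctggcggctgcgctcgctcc
This window holds 1 GC box and 50 CG dinucleotides, against 20 in the window of SETD9, and its first bases in the genome fall inside the deposited span of KDM7A.

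The abundant demethylases showed smaller values. KDM5C, an X-linked relative of KDM5B, averaged 80.2 ± 3.42 scaled TPM in the UCK2 shRNA libraries and 72.2 ± 9.47 in the controls (SD, n = 2 each), a log2 difference of 0.16 that was -0.08 as deposited. KDM2A, which acts at CpG islands, averaged 35.5 ± 3.18 and 36.3 ± 2.54 scaled TPM in the UCK2 shRNA and control libraries, a difference of -0.03. KDM1A (LSD1), the flavin-dependent demethylase of the CoREST complex, measured 31.7 and 27.7 scaled TPM in the UCK2 shRNA libraries, against 33.4 and 33.9 in the controls. It was the 1 demethylase whose UCK2 shRNA libraries both lay below both controls, with a difference of -0.18 ± 0.20.

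Acetyltransferases had a median log2 difference of -0.14 over 7 genes, with 4 below 0, and the median lay below 0 under each scaling tried, from -0.38 as deposited to -0.01 with the protein-coding rows brought to one total. None passed the threshold. The groups did not overlap for KAT2A, KAT7 and KAT8, all lower, which is 42.9% of the class where all genes gave 15.5%. With the protein-coding rows brought to one total none of the 7 was lower without overlap, and as deposited 4 of 7 were, where all genes gave 9.86% and 44.4%. KAT2A (GCN5), the acetyltransferase of the SAGA complex, measured 45.8 and 37.8 scaled TPM in the UCK2 shRNA libraries, against 49.9 and 49.2 in the controls, a difference of -0.25 ± 0.20 (SE, limma adjusted p = 0.955). KAT7 (HBO1), which acts at replication origins, measured 19.9 and 16.6 scaled TPM in the UCK2 shRNA libraries against 22.0 and 22.9 in the controls, a difference of -0.29 ± 0.21. KAT8 (MOF), which acetylates histone H4 and is named outside the rule, measured 19.1 and 15.9 scaled TPM in the UCK2 shRNA libraries against 20.3 and 21.4 in the controls, a difference of -0.25. In all 3 genes UCK2 shRNA replicate 2 was the lowest library, and without it the differences were -0.11 for KAT2A, -0.17 for KAT7 and -0.12 for KAT8. KAT5 (TIP60) averaged 32.0 ± 2.40 scaled TPM in the UCK2 shRNA libraries and 35.9 ± 7.72 in the controls, and its value is uncertain, since 38.6% of its exon bases are shared with RNASEH2C on the opposite strand.

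Zinc-dependent deacetylases had a median of -0.06 over 10 genes, with 4 above 0 and none past the threshold. With the protein-coding rows brought to one total 9 of 10 were above 0, and as deposited 1 of 10. The median was 0.0096 without UCK2 shRNA replicate 2 and 0.07 without control replicate 2. The class I enzymes HDAC1 and HDAC2, close paralogs that share the Sin3, NuRD and CoREST complexes, lay on opposite sides. HDAC1 (chromosome 1, 32292086 to 32333635, plus strand) measured 130 and 113 scaled TPM in UCK2 shRNA replicates 1 and 2, against 136 and 157 in control replicates 1 and 2. HDAC2 (chromosome 6, 113933028 to 114011308, minus strand) measured 72.6 and 78.2 scaled TPM in the UCK2 shRNA libraries, against 66.3 and 50.7 in the controls. The groups overlapped for neither gene, with HDAC1 lower and HDAC2 higher in both UCK2 shRNA libraries. The log2 differences were -0.27 ± 0.20 for HDAC1 (SE, limma adjusted p = 0.955) and 0.37 ± 0.21 for HDAC2 (adjusted p = 0.955), and neither turned with a library left out. Without control replicate 2 they were -0.17 for HDAC1 and 0.18 for HDAC2. In the deposited values HDAC1 was still lower without overlap, at -0.51, while the groups overlapped for HDAC2, at 0.13.

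The ratio of HDAC1 to HDAC2 within a library does not depend on scaling. It was 1.79 and 1.45 in UCK2 shRNA replicates 1 and 2, against 2.06 and 3.09 in control replicates 1 and 2. All 4 libraries held more HDAC1 than HDAC2 per transcript length, and the ratio was lower in both UCK2 shRNA libraries. An exact permutation test of 2 against 2 cannot go below p = 0.333, so no test is given. The 250 bases before the RefSeq starts of both genes (GRCh38.p14, chr1:32291833-32292082 on the plus strand and chr6:113971149-113971398 on the minus strand) are shown to set the paralogs side by side, with GC boxes in capitals.
HDAC1: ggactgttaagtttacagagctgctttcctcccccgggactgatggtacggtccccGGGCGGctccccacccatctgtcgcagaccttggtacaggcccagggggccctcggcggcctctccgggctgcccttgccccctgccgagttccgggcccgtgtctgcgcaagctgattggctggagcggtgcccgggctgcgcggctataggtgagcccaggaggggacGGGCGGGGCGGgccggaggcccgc
HDAC2: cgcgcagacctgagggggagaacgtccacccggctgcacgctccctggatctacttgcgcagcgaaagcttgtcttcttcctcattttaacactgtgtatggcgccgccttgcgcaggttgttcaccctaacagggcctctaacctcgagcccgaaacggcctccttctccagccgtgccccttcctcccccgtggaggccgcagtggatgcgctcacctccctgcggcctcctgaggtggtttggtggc
The HDAC1 window holds 3 GC boxes, of which 2 overlap, and 1 CCAAT box (CCAAT or ATTGG), while neither motif is found in these letters for HDAC2. The deposited span of HDAC2 reaches beyond this RefSeq start, so the window is not the start of every HDAC2 transcript counted.

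HDAC7, a class IIa deacetylase and the third most abundant of this class, averaged 51.2 ± 1.73 scaled TPM in the UCK2 shRNA libraries and 52.7 ± 12.1 in the controls (SD, n = 2 each), a log2 difference of -0.02. The other deacetylases tested (HDAC3, HDAC4, HDAC5, HDAC6, HDAC8, HDAC9 and HDAC11) had log2 differences between -0.13 and 0.19, with overlapping groups.

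Sirtuins had a median log2 difference of 0.08 over 7 genes, or -0.15 as deposited and -0.04 with quantile normalization. It was also below 0 without UCK2 shRNA replicate 1 (-0.05), without UCK2 shRNA replicate 2 (-0.05) and without control replicate 2 (-0.06). SIRT2, SIRT6 and SIRT7 were below 0 and the other 4 above it, and all 7 were below 0 as deposited. SIRT7, a deacetylase of the nucleolus, measured 123 and 141 scaled TPM in the UCK2 shRNA libraries, against 146 and 159 in the controls, a difference of -0.21 ± 0.20 (SE, limma adjusted p = 0.955). SIRT2, a mainly cytoplasmic tubulin deacetylase, measured 37.9 and 38.3 scaled TPM in the UCK2 shRNA libraries against 39.9 and 54.5 in the controls. Control replicate 2 stood apart for SIRT2, and the difference of -0.28 was -0.06 without it. SIRT6, which acts in DNA repair and at telomeres, measured 25.2 and 34.5 scaled TPM in the UCK2 shRNA libraries against 31.7 and 43.8 in the controls, with overlapping groups and a difference of -0.33 ± 0.24. SIRT1, the best known nuclear sirtuin and named outside the rule, measured 5.24 and 7.65 scaled TPM in the UCK2 shRNA libraries against 6.55 and 4.52 in the controls, and its difference of 0.19 was -0.02 as deposited.

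Arginine methyltransferases had a median of -0.18 over 6 genes, with 4 below 0, or 6 of 6 as deposited, and none past the threshold. The median was -0.02 without UCK2 shRNA replicate 2. PRMT1, the main enzyme of asymmetric arginine dimethylation, measured 274 and 234 scaled TPM in UCK2 shRNA replicates 1 and 2, against 247 and 341 in control replicates 1 and 2. Control replicate 2 was high, and the difference of -0.19 ± 0.23 in PRMT1 (limma adjusted p = 0.957) was 0.04 without it. PRMT5, the main enzyme of symmetric dimethylation, measured 48.6 and 31.6 scaled TPM in the UCK2 shRNA libraries against 38.2 and 53.2 in the controls, a difference of -0.20 with overlapping groups, and 27.1% of its exon bases are shared with PRMT5-AS1 on the opposite strand, whose levels were 0.501 to 1.37. PRMT6 measured 9.71 and 10.1 scaled TPM in the UCK2 shRNA libraries against 12.1 and 11.9 in the controls. It was the 1 gene of 6 whose groups did not overlap (16.7%, where 15.5% of all genes were lower), and as deposited 4 of 6 were lower without overlap (66.7%, where all genes gave 44.4%). PRMT6 had a difference of -0.25 ± 0.21 that lay between -0.28 and -0.22 with a library left out. PRMT7 averaged 18.0 ± 1.57 and 20.3 ± 2.73 scaled TPM in the UCK2 shRNA and control libraries, a difference of -0.16.

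Among the DNA methyltransferases, DNMT1, which copies methylation at replication, measured 61.8 and 42.2 scaled TPM in UCK2 shRNA replicates 1 and 2, against 61.1 and 63.2 in control replicates 1 and 2. UCK2 shRNA replicate 2 was low and the other 3 libraries were alike, so the difference of -0.28 ± 0.23 in DNMT1 (SE, limma adjusted p = 0.955) was -0.0075 without that library. The de novo enzymes were far less abundant. DNMT3A measured 7.37 and 8.94 scaled TPM in the UCK2 shRNA libraries against 6.27 and 8.40 in the controls, a difference of 0.14 (-0.07 as deposited). DNMT3B measured 4.74 and 6.33 scaled TPM in the UCK2 shRNA libraries against 5.36 and 5.58 in the controls, a difference of 0.0033 (-0.20 as deposited). The groups overlapped for all 3 genes.

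The TET enzymes were near the lower limit of what was tested. TET3 measured 2.13 and 3.06 scaled TPM in the UCK2 shRNA libraries against 2.44 and 1.72 in the controls, a log2 difference of 0.22. TET2 measured 1.49 and 1.89 scaled TPM in the UCK2 shRNA libraries against 1.90 and 0.654 in the controls, and its difference of 0.29 was -0.11 without control replicate 2. TET1 did not exceed 0.134 scaled TPM in any library. In bulk RNA, fewer cells that express a gene and less RNA per cell cannot be told apart.

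**Figure D3:**
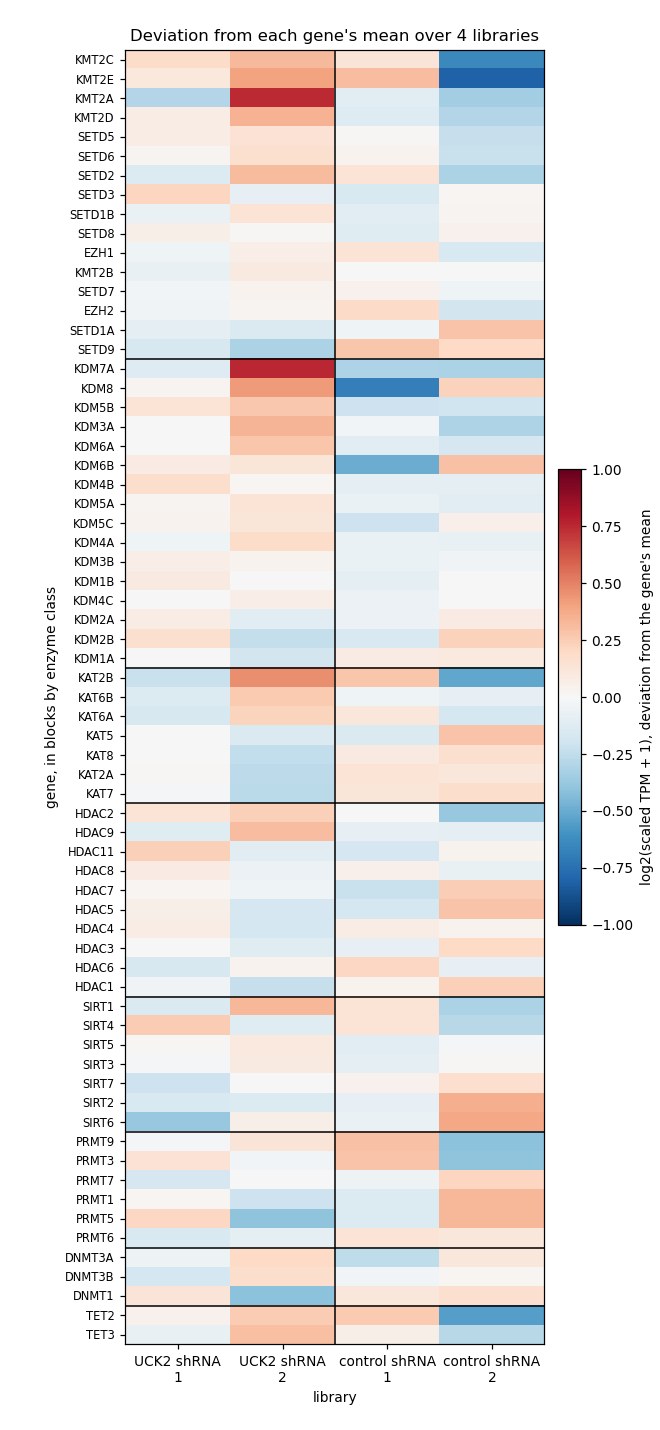
Deviation of log2(scaled TPM + 1) from each gene's mean over the 4 libraries for the 67 enzymes tested, red above and blue below, with libraries as columns (UCK2 shRNA left of the line) and enzyme classes as blocks. KMT2A, KDM7A and KAT2B are highest in UCK2 shRNA replicate 2, and KMT2C, KMT2E, KAT2B and TET2 lowest in control replicate 2.

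Single libraries decided many of these values. Between the controls 9 of 67 enzymes differed at least 1.5-fold, 7 of them higher in replicate 1 than in replicate 2, and between the UCK2 shRNA libraries 5 did. Between the group means 1 of 67 reached 1.5-fold, which was KDM7A at 2.58 ± 1.49 scaled TPM in the UCK2 shRNA libraries and 1.22 ± 0.00596 in the controls (SD, n = 2 each). Means of 2 libraries spread less than single ones, so this count and those within groups are not like measures. Without UCK2 shRNA replicate 2 the sign of 18 of 67 differences changed, and without control replicate 2 that of 20, against 5 without UCK2 shRNA replicate 1 and 7 without control replicate 1.

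Ratios of related enzymes within a library, which need no scaling, were taken for 15 pairs chosen after their values were seen. The groups overlapped in 10 pairs and the ratio was lower in both UCK2 shRNA libraries in 5. The levels of 31.5% of all genes did not overlap in one direction or the other, so 5 of 15 is near the share seen for single genes and is given as a description. Beside HDAC1 over HDAC2 these were KDM1A over KDM1B, at 5.54 and 5.22 in the UCK2 shRNA libraries against 6.78 and 6.38 in the controls, and KDM5A over KDM5B, at 2.80 and 2.74 in the UCK2 shRNA libraries against 3.46 and 3.34 in the controls. SETD1A over SETD1B, the methyltransferases of the COMPASS complexes, was 0.571 and 0.475 in the UCK2 shRNA libraries against 0.614 and 0.716 in the controls. EZH2 over KDM6A, the writer and an eraser of the Polycomb mark, was 1.61 and 1.37 in the UCK2 shRNA libraries against 2.04 and 1.63 in the controls, with the second UCK2 shRNA library lowest. EZH2 over EZH1 was nearly the same in every library, between 2.91 and 3.11.

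Longer genes tended to have higher values. Across the 67 enzymes Spearman's rho between the log2 difference and the total exon length of the gene in GENCODE release 29 was 0.42, and across the 11584 protein-coding genes with a length it was 0.28. Genes are not independent replicates and share the same 4 libraries, so this is a description. The difference between control replicates 1 and 2 moved with exon length as well, with a rho of 0.28 across the enzymes and 0.29 across protein-coding genes. For UCK2 shRNA replicate 2 minus replicate 1, rho was 0.30 across the enzymes and 0.21 across protein-coding genes. The 22 enzymes with the shortest exon length (1222 to 5281 bases) had a median log2 difference of -0.0023, the 23 of middle length 0.07, and the 22 longest (10380 to 32495 bases) 0.18. The enzymes had a median exon length of 7618 bases against 5088 for protein-coding genes. In each of the 5 pair ratios that were lower in both UCK2 shRNA libraries, the first gene had the shorter total exon length. These lengths were 3963 bases for HDAC1 and 15461 for HDAC2, but a near-equal 5440 for KDM1A and 5596 for KDM1B. The part of transcript length in these ratios and in the values of the KMT2 genes and demethylases was not tested.

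**Figure D4:**
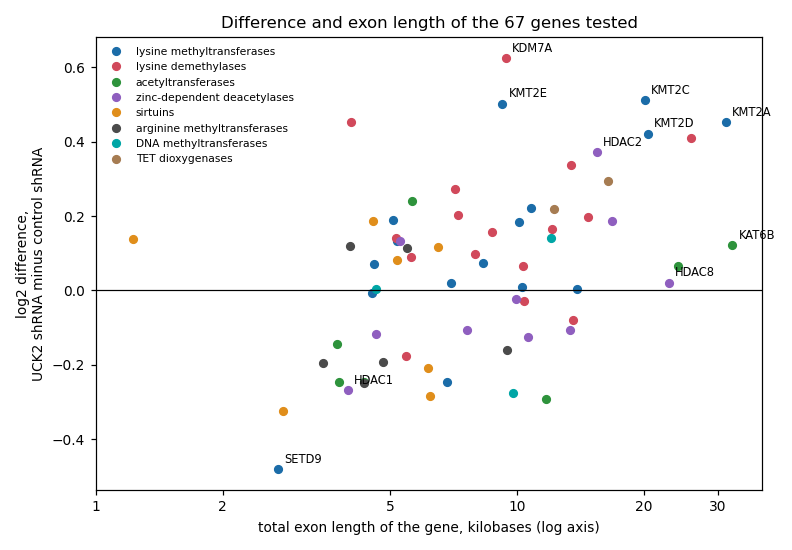
Log2 difference (UCK2 shRNA minus control shRNA) of the 67 enzymes against the total exon length of each gene in kilobases on a log axis, coloured by class. Points rise to the right, with a Spearman's rho of 0.42, with SETD9 at -0.48 among the shorter genes and KMT2C at 0.51 among the longer ones.

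The promoters of the enzymes were rich in CG dinucleotides. RefSeq windows of the 250 bases before the start were found for 65 of 71 enzymes, and 58 of these (89.2%) had an observed to expected CG ratio of at least 0.6, against 64.2% of 13678 windows of protein-coding genes in the table. The GC box GGGCGG was found on either strand in 39 of 65 windows (60.0%), against 56.8% of the coding windows and 42.3% of all 27305 windows. CCAAT was found in 21 (32.3%), against 34.6% and 33.0%. TATAAA was found in 0 of 65, against 8.85% of coding and 11.1% of all windows. The coding windows were not limited to the 11624 protein-coding genes tested, so the enzymes were not compared with expressed genes alone. Matches of letters are a description and not evidence of binding.

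With scaled values, partner genes gave few low p-values. Of 121 genes in 8 lists of complex subunits, other histone enzymes, readers and cofactor suppliers, 120 were tested. None passed the threshold (0 at an adjusted p under 0.05 with limma) and 3 had an unadjusted p under 0.05, where 3.97% of all genes were higher and 1.42% lower at that level. The median log2 difference of the 120 was -0.04, and 50 were above 0, or -0.27 and 20 as deposited. DOT1L, the methyltransferase of histone H3 in transcribed genes, measured 15.9 and 16.1 scaled TPM in UCK2 shRNA replicates 1 and 2, against 24.1 and 23.0 in control replicates 1 and 2. Its libraries were close within each group and apart between groups, with a log2 difference of -0.53 ± 0.20 (SE, adjusted p = 0.852), or -0.76 as deposited. JADE1, a scaffold of KAT7 complexes, measured 14.4 and 17.2 scaled TPM in the UCK2 shRNA libraries against 10.999 and 9.02 in the controls. The difference of JADE1 was 0.61 (limma adjusted p = 0.835), or 0.39 as deposited. HELLS, a chromatin remodeller that assists DNA methylation, measured 11.5 and 15.3 scaled TPM in the UCK2 shRNA libraries against 10.7 and 5.78 in the controls. The difference of HELLS was 0.68 (limma adjusted p = 0.915), or 0.46 as deposited. Control replicate 1 was close to UCK2 shRNA replicate 1 for HELLS, and control replicate 2 was low.

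The lists themselves had medians between -0.18 and 0.14, and as deposited all 8 medians lay below 0, from -0.41 to -0.09. Among Polycomb partners 5 of 9 genes were above 0, with PHF19 at -0.53 and RBBP4 at -0.03. For PHF19 the groups overlapped, at 70.0 and 39.4 scaled TPM in the UCK2 shRNA libraries against 68.1 and 85.7 in the controls. Of the KMT2 and SETD1 partners 4 of 11 were above 0, with DPY30 at -0.14 and WDR82 at -0.08. Of the deacetylase complex subunits 10 of 18 were above 0, with CHD4 at 0.06. Of the acetyltransferase subunits 8 of 23 were above 0, with TADA3 at -0.18 and JADE2 at -0.32.

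Of the other histone enzymes 12 of 23 were above 0, with SMYD3 at 0.15 and NAA60 at -0.16. Of the DNA methylation partners 5 of 8 were above 0, with MBD1 at -0.21. Readers had 3 of 14 above 0, with CBX3 at 0.13. The cofactor suppliers had the lowest median, -0.18, with 3 of 14 above 0. Its most abundant member NAMPT, which makes the NAD used by sirtuins, averaged 748 ± 128 scaled TPM in the UCK2 shRNA libraries and 516 ± 191 in the controls (SD, n = 2 each). The difference of NAMPT was 0.58 (limma adjusted p = 0.951), or 0.34 as deposited. Its libraries measured 657 and 838 with the UCK2 shRNA against 651 and 380 in the controls, so control replicate 2 was low. MAT2A, which makes S-adenosylmethionine, averaged 185 ± 14.1 and 186 ± 13.2 scaled TPM in the UCK2 shRNA and control libraries.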

How the data were processed

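Gene expression of 4 MHCC-97H libraries, 2 with a UCK2 shRNA and 2 with a control shRNA by their titles, was read from the authors' deposited table of TPM. How the authors computed TPM is not given. Tools listed in the submitters' processing notes, with no roles, are TopHat2 2.0.14, edgeR, DESeq and HTSeq, and the build is hg38. Strand use in counting is not stated, and 24 of the 71 enzymes share exon sequence with a gene on the opposite strand in GENCODE release 29, in which 60 of 71 spans were identical to the table's.

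Genes averaging at least 1 TPM were kept (14038). Values were divided by median-ratio factors of 0.918 and 0.928 for UCK2 shRNA replicates 1 and 2 and 1.19 and 1.00 for control replicates 1 and 2. The control factors differ although nearly the same share of the TPM total lay outside the rows used here in both. The scaling therefore does more than offset that share. The groups were compared by limma 3.58.1 (R 4.3.3; lmFit, then eBayes with trend), two-sided, on log2(scaled TPM + 1). Benjamini-Hochberg adjusted p-values cover every gene kept, and the threshold was 0.05. Counting tests were not used, since TPM are not counts. The fit was run on simulated data with planted changes larger than that of any enzyme tested here. That run checked the estimates and the scaling, and not whether smaller changes would be found. The members and lists were chosen with earlier results of these data known. Named are the 3 most abundant genes of each class, the 8 highest and 8 lowest log2 differences, any with an unadjusted p under 0.05, and for partner lists the 2 most abundant and any with such a p. Genes named outside this rule were chosen after their values were seen, and some partner genes that the rule names are not reported here. Promoter sequences are from RefSeq, GRCh38.p14. Figures were drawn with matplotlib 3.10.9.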

Additional observations from a re-analysis of the deposited data

How the results depend on the processing

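No enzyme and no partner gene passed the threshold under any alternative: values as deposited, protein-coding rows rescaled to one total, quantile normalization, a pseudocount of 0.1, no filter, a floor of 5 on mean TPM, no variance trend, the replicate block, or any library left out. Of all genes, 9 were called higher and 0 lower. The higher count was 0 as deposited, with the rescaled rows and with no filter, 2 with a pseudocount of 0.1 and 2 with a floor of 5 on mean TPM. The lower count was 1 with no variance trend. With the replicate block, 98 were higher and 23 lower. Same-numbered libraries deviated in opposite directions (r = -0.23 across 14038 genes), so the numbers are not taken to pair them, and crossed pairs, added after seeing the data, gave 13 higher and 0 lower. With a library left out, which leaves a lone sample assumed to vary like the others, 0 to 23 were higher and 0 to 1 lower.

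The median log2 difference of the 67 enzymes was -0.13 as deposited, 0.20 with the rescaled rows, 0.040 with quantile normalization and 0.022 with no filter. With a library left out it was 0.018 to 0.081 scaled and -0.28 to -0.071 as deposited, where it was -0.14 without UCK2 shRNA replicate 1 and -0.21 without UCK2 shRNA replicate 2. Enzymes whose groups did not overlap numbered 1 higher and 30 lower as deposited, and 21 higher and 3 lower with the rescaled rows, where all genes gave 22.1% and 9.86%. With a library left out they numbered 20 to 31 higher and 17 to 22 lower scaled, where all genes gave 25.8% to 39.4% higher and 26.7% to 39.8% lower, and 3 to 21 higher and 32 to 54 lower as deposited, where all genes gave 7.62% to 31.7% and 48.5% to 76.3%, since 1 library against 2 overlaps less easily. As deposited the lower count was 33 without UCK2 shRNA replicate 1, 41 without UCK2 shRNA replicate 2 and 32 without control shRNA replicate 1. The UCK2 difference was 0.057 with the rescaled rows, 0.059 with quantile normalization and -0.49 to 0.34 with a library left out. The causes of the other changes were not tested.

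The sign of the difference turned in 30 of 67 enzymes as deposited, 8 with the rescaled rows, 10 with quantile normalization, 7 with no filter, 3 of 57 with the floor of 5 on mean TPM and 35 of 67 with some library left out. The values that follow are for the enzymes and partners named by the rule or described in full. As deposited those that turned were -0.069 (DNMT3A), -0.20 (DNMT3B), -0.20 (EZH1), -0.081 (KDM5C), -0.018 (SETD5), -0.17 (SETD8), -0.022 (SIRT1), -0.11 (CBX3), -0.18 (CHD4), -0.089 (SMYD3). With the rescaled rows they were 0.12 (EZH2), 0.11 (HDAC7), 0.10 (KDM2A), 0.13 (MAT2A), 0.098 (RBBP4), 0.048 (WDR82). With quantile normalization they were -0.11 (DNMT3B), -0.067 (EZH1), 0.013 (EZH2), 0.084 (HDAC7), 0.040 (KDM2A), 0.015 (DPY30), 0.15 (MAT2A), 0.058 (RBBP4). With the floor of 5 on mean TPM they were 0.044 (EZH2), 0.031 (HDAC7), 0.024 (KDM2A), 0.046 (MAT2A), 0.020 (RBBP4). With no filter they were -0.059 (DNMT3B), -0.046 (EZH1), -0.0003 (SETD8), -0.013 (CHD4).

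With a library left out the differences of these described genes ran from -0.043 to 0.33 (DNMT3A), -0.17 to 0.18 (DNMT3B), -0.13 to 0.16 (EZH1), -0.20 to 0.18 (EZH2), -0.25 to 0.21 (HDAC7), -0.36 to 0.071 (KAT5), -0.12 to 0.059 (KDM2A), -0.0065 to 0.91 (KDM8), -0.065 to 0.97 (KMT2A), -0.053 to 1.06 (KMT2E), -0.43 to 0.040 (PRMT1), -0.50 to 0.11 (PRMT5). They also ran from -0.011 to 0.15 (SETD8), -0.049 to 0.42 (SIRT1), -0.11 to 0.70 (TET2), -0.41 to 0.67 (CBX3), -0.0036 to 0.12 (CHD4), -0.085 to 0.070 (MAT2A), -0.11 to 0.041 (RBBP4), -0.028 to 0.33 (SMYD3), -0.40 to 0.040 (TADA3), -0.21 to 0.047 (WDR82). TPM hold no depth, so the precision of low genes such as TET2 and KDM7A is unknown.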
